A study of Mus musculus with 12 samples.

Results

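The genes described here are 48 enzymes that break down amino acids or interconvert them, measured in the kidneys of wild-type mice. They were taken by symbol from a list of names, and each of the 48 matched 1 of the 33188 genes in the expression table. The rule uses names and no measured value. Of the 48 genes, 5 belong to arginine, urea cycle and creatine metabolism, 5 to methionine and cysteine, 3 to tyrosine, 8 to proline, ornithine, glutamate and aspartate, 11 to the branched chain amino acids and propionate, 6 to glycine and serine, 2 to D-amino acids and 6 to tryptophan and kynurenine. The other 2, Aoc1 and Miox, oxidise diamines and inositol.

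RNA was sequenced from 12 kidney samples in 3 groups of 4. XZSW samples came from mice with the hyperuricaemia model that also received Xin-Zi-Sheng-Wan decoction, a herbal preparation. HUA samples came from mice with the model alone, and CTL samples from control mice. The model was induced with potassium oxonate, which blocks the enzyme that degrades uric acid in mice, together with hypoxanthine, a purine from which uric acid is made. XZSW and HUA mice thus share both agents, and CTL is the group that the labels give without them. The labels give no strain, sex, age, dose or duration. Whether the 4 samples of a group are 4 separate animals is not given in the labels, and the p-values speak only of the spread among the samples, which may be technical. Expression columns carried the letters M, N and C, which the sample descriptions tie to XZSW, HUA and CTL. M and N do not abbreviate these names, and no other label checks that tie.

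The kidney takes up filtered amino acids in the proximal tubule and processes them there. As background, the tubule makes arginine for the circulation, using citrulline that the gut releases, and it carries out the first step of creatine synthesis. It also recycles or degrades methionine, oxidises proline, glycine, tyrosine, tryptophan and the branched chain amino acids, and uses glutamine and glutamate in acid-base balance. Many of these enzymes are therefore used as marks of mature proximal tubule cells.

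Libraries held 51.6 to 74.3 M counts. Levels within a gene are given as CPM, counts scaled to a common library total, after scaling with TMM factors, which correct library totals for differences in composition. All 48 genes passed a filter on low counts, as did 19772 of the 33188 genes in the table. Changes are log2 ratios ± standard error from edgeR's quasi-likelihood test fitted to all 12 libraries, and a gene is said to have risen or fallen where its p-value, adjusted over the 19772 genes by Benjamini-Hochberg, was under 0.05. Libraries differed in how a gene's level followed its GC content. The slope of the log2 level, relative to the CTL mean, was 0.239 to 0.342 per 10% GC in HUA2, HUA3, HUA4, XZSW3 and XZSW4, against -0.042 to 0.112 in the other 7 libraries. XZSW1 and XZSW2 stood apart in another way, since they alone held counts of the liver transcript Ahsg, 161 and 63 counts, which had 0 counts in the other 10 libraries. XZSW4 had the most counts of Apoa1, another liver transcript, at 16.6 CPM where the other 11 libraries had at most 1.25 CPM. HUA1, XZSW1 and XZSW2 also had a steeper rise of the level with gene length, 0.269, 0.190 and 0.144 on the log2 scale per doubling of length, against -0.0587 to 0.0817 in the other 9 libraries. The calls of the enzymes in XZSW against HUA are given also without XZSW1 and XZSW2, an alternative added after the data had been seen.

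Most of the enzymes had lower RNA levels in HUA kidneys than in CTL kidneys. In HUA against CTL, 36 of the 48 fell, where 12.8% of all tested genes fell, and 2 rose, where 14.9% of all tested genes rose. The 2 that rose were Arg2, the mitochondrial arginase, and Aoc1, the diamine oxidase. The other 10, Gatm, Gamt, Bhmt, Oat, Glul, Gldc, Amt, Ddo, Kynu and Qprt, did not pass the test. The median log2 change over the 48 genes was -1.15, and over all tested genes 0.06. For 36 of the 48 genes every HUA library was below every CTL library, which held for 15.2% of tested genes, and for 2 every HUA library was above, which held for 15.1%. These 38 calls are set against 27.8% of all tested genes called in either direction, and 34 of them held in all 12 fits that leave out 1 library in turn. Other settings ended 6 of the falls, those of Ass1, Hpd, Glud1, Got1, Got2 and Shmt1. Amt, Bhmt, Ddo, Oat and Qprt passed under at least 1 of them. The values are given beside each gene or in the last section.

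In XZSW kidneys most of the 48 enzymes stood higher than in HUA kidneys. In XZSW against HUA, 31 of the 48 rose, where 7.09% of all tested genes rose, and 2 fell, where 8.34% of all tested genes fell. The 2 that fell were again Arg2 and Aoc1, and 15 did not pass. The median log2 change was 0.94 over the 48 genes and 0.01 over all tested genes. Every XZSW library was above every HUA library for 33 of the 48 genes, against 8.98% of tested genes, and below for 1, Arg2, against 9.08%. This comparison shares its HUA libraries with HUA against CTL, so the HUA values enter both with opposite sign. The count of rises varied with the libraries in the fit. It was 17 to 34 with 1 library left out, lowest without HUA3, 18 without XZSW2 and highest without HUA1. With the 8 libraries of the comparison alone, 15 rose and 1 fell, and the calls that ended there were those of Ass1, Gatm, Cbs, Cth, Hpd, Aldh4a1, Got2, Bckdhb, Mccc2, Pcca, Aldh6a1, Shmt1, Dao, Kmo, Haao, Acmsd and Aoc1 (adjusted p from 0.0564 to 0.111). With XZSW1 and XZSW2 left out, 10 rose, namely Asl, Prodh2, Bckdha, Bckdhb, Ivd, Hibadh, Gcsh, Shmt2, Acmsd and Miox, and Arg2 fell. The other 22 calls ended there, each with the log2 change on the same side of 0. That fit keeps 2 XZSW libraries, and fewer libraries by themselves make a call harder to reach. Over all genes, those that fell numbered 780 there against 1649 in the main fit. Among the ended calls some changes were larger without the pair (Gatm 1.93 against 1.82, Cbs 1.05 against 0.96) and others smaller (Hpd 1.65 against 2.49, Aldh6a1 0.68 against 1.01). The part of the pair itself in the ended calls was not tested. Library totals in place of TMM ended the rises of Cth, Got2, Bckdhb, Mccc2, Aldh6a1, Shmt1, Dao and Kmo (adjusted p from 0.0556 to 0.171), and all genes of at least 1 count ended those of Gatm, Cth, Hpd, Got2, Bckdhb, Mccc2, Aldh6a1 and Kmo (from 0.0514 to 0.0643). DESeq2 gave calls to Gamt, Got1, Hibch, Amt and Aadat as well (adjusted p from 0.019 to 0.0486). These 33 calls are set against 15.4% of all tested genes called in either direction, and 17 of them held in all 12 fits that leave out 1 library in turn.

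Between XZSW and CTL kidneys few of the enzymes differed past the test. In XZSW against CTL, 1 of the 48 rose, Aoc1, and 2 fell, Mat2a and Pccb, where 2.72% of all tested genes rose and 2.27% fell. The median log2 change was -0.24 over the 48 genes and 0.04 over all tested genes. Every XZSW library was below every CTL library for 13 genes, where 11.3% of tested genes were, and above for 4, where 10.3% were. Called in either direction were 3 of the 48 and 4.99% of all tested genes. None of the 3 calls held in all 12 fits with 1 library left out, and without CTL2 or without CTL3 no gene of the 48 was called. With the 8 libraries of the comparison alone 3 rose and 10 fell. A p-value over the threshold does not show that a gene's level was the same in XZSW and CTL kidneys.

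The direction for all genes depended on the scaling, and in the comparisons with HUA that for the enzymes did so less. With library totals in place of TMM factors, all genes split into 5779 that rose and 1320 that fell in HUA against CTL, where TMM gave 2950 and 2538, and the enzymes into 2 and 31. The same scaling in XZSW against HUA gave 836 and 2714 for all genes, where TMM gave 1402 and 1649, and 23 and 2 for the enzymes. For XZSW against CTL it gave 1221 and 224, where TMM gave 538 and 449, and 2 and 1 for the enzymes. It moved the median of all genes by 0.33, -0.17 and 0.16 in these comparisons, on the log2 scale. The median of the enzymes moved about as far, from -1.15 to -0.83, from 0.94 to 0.77 and from -0.24 to -0.08.

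**Figure D1:**
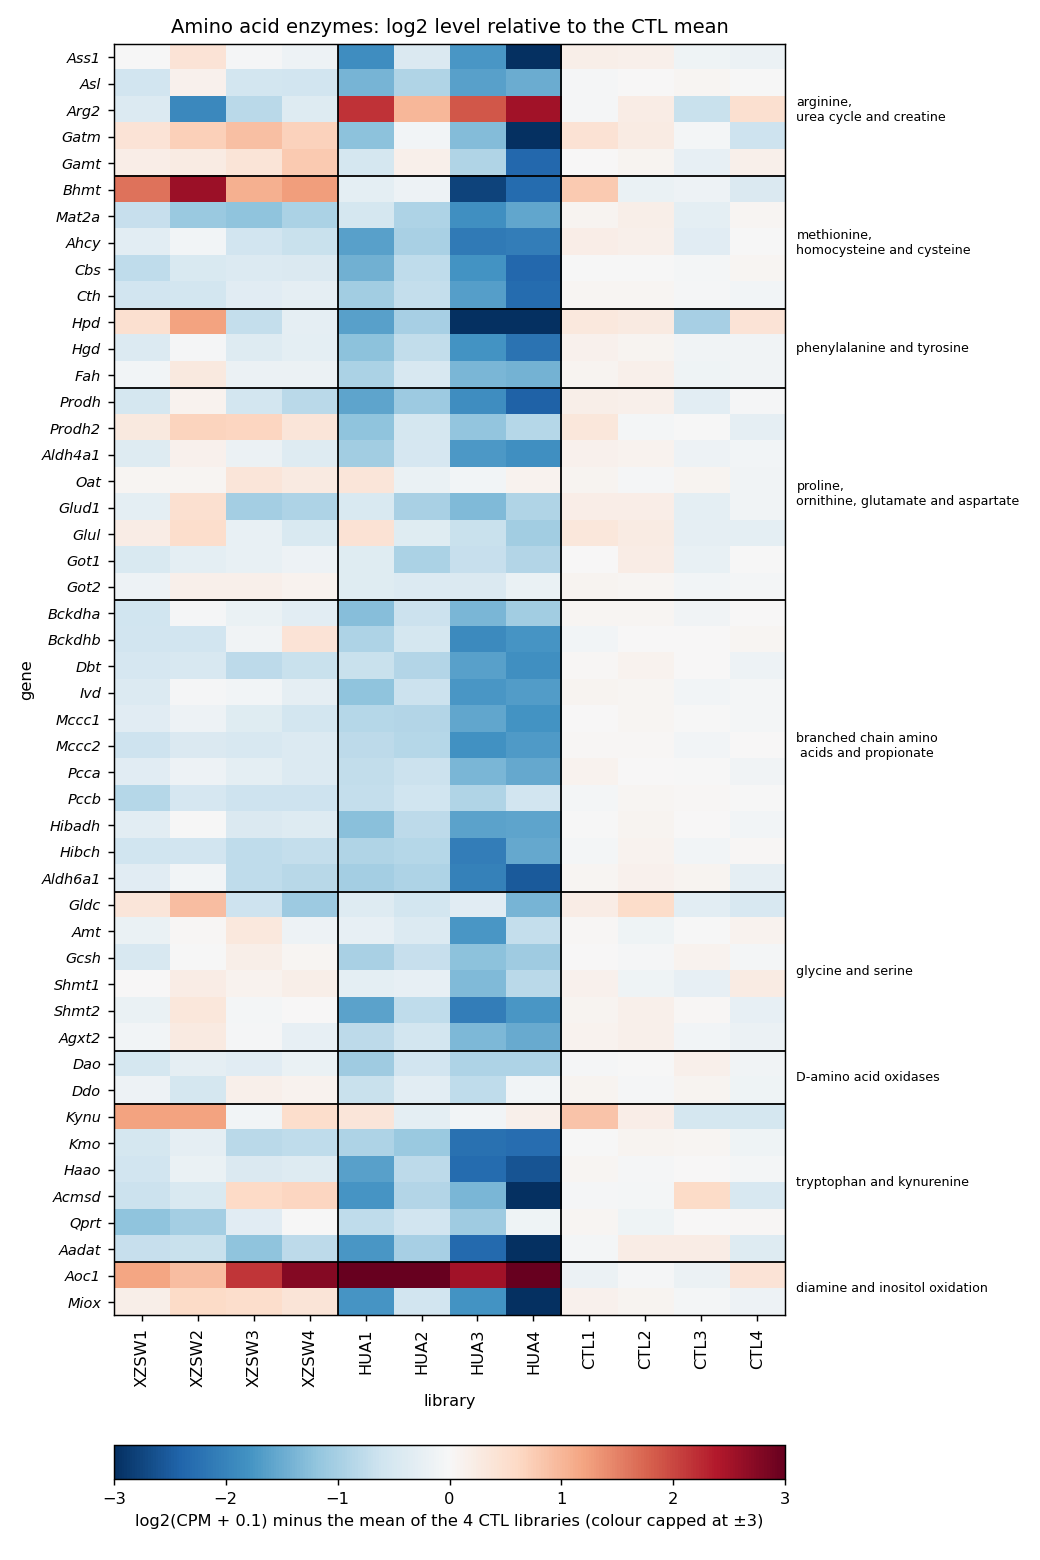
Level of each of the 48 enzyme genes (rows, grouped by pathway) in each of the 12 libraries (columns: XZSW, HUA, CTL), as log2(CPM + 0.1) minus the mean of the 4 CTL libraries, with blue for lower and red for higher and the colour capped at ±3. HUA columns are blue in most rows, most deeply in HUA3 and HUA4, while the rows of Arg2 and Aoc1 are red in HUA.

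**Figure D2:**
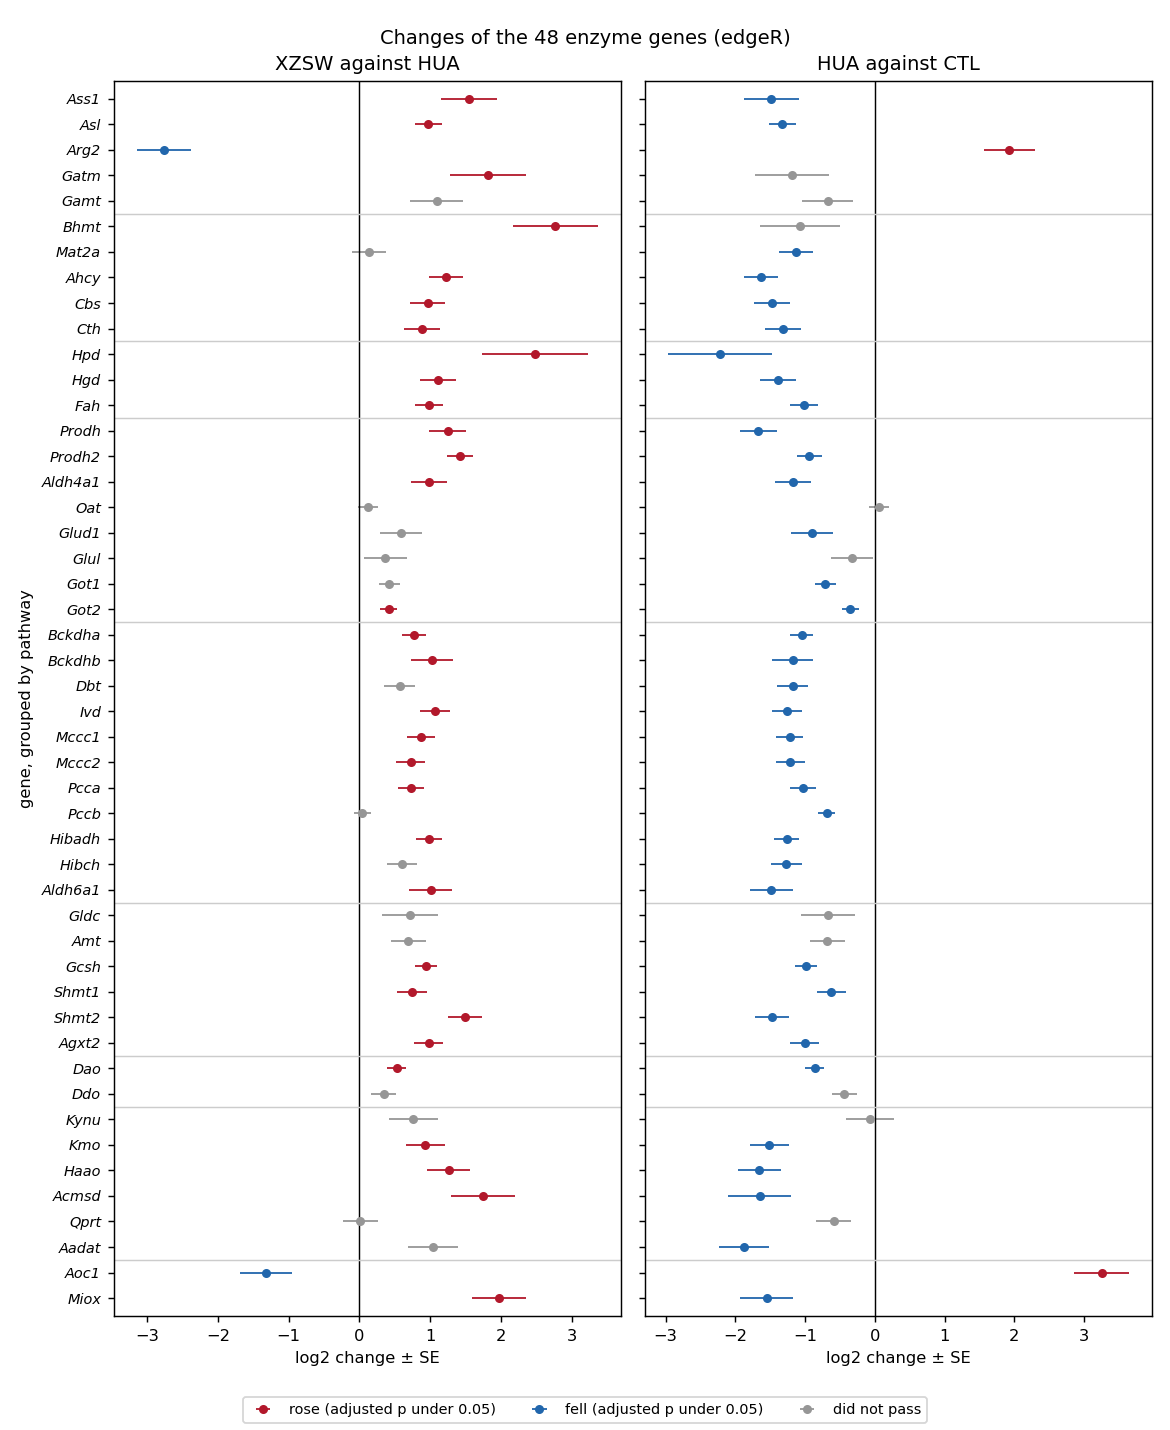
Log2 change ± standard error of each of the 48 genes, in XZSW against HUA (left) and HUA against CTL (right), from edgeR's test on all 12 libraries; red rose and blue fell at an adjusted p under 0.05, and grey did not pass. On the right 36 genes lie below 0 in blue, and on the left 31 lie above 0 in red, with Arg2 and Aoc1 on the opposite side in each panel.

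The enzymes varied more among HUA libraries than among the others. The 48 genes together took 1.33% to 1.59% of all counts in XZSW libraries, 0.56% to 1.13% in HUA libraries and 1.34% to 1.53% in CTL libraries. The median coefficient of variation over the 48 genes was 0.162 in XZSW, 0.375 in HUA and 0.0924 in CTL, beside 0.232, 0.312 and 0.169 over all tested genes in the same groups. Within HUA, HUA2 was the highest library for 30 of the 48 genes, where it was for 20.8% of all tested genes. HUA4 was the lowest for 22 and HUA3 for 20, where they were for 27.7% and 23.9% of all tested genes. Within XZSW, XZSW2 was the highest library for 31 genes and XZSW1 the lowest for 24, beside 28.1% and 27.8% of all tested genes.

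Other measures moved with the enzymes. Of 16 proximal tubule markers, 11 fell and 0 rose in HUA against CTL, and 10 rose and 1 fell in XZSW against HUA. Their summed level was 10440 to 14966 CPM in XZSW libraries, 3460 to 7549 CPM in HUA libraries and 11610 to 14258 CPM in CTL libraries. All 7 markers of proximal tubule injury rose in HUA against CTL and fell in XZSW against HUA, with a summed level of 799 to 1048 CPM in XZSW, 3660 to 9587 CPM in HUA and 381 to 425 CPM in CTL. Of 12 macrophage markers, 10 rose in HUA against CTL and 4 fell in XZSW against HUA, with a summed level of 95.8 to 269 CPM in XZSW, 341 to 471 CPM in HUA and 76.0 to 132 CPM in CTL. Of 5 thick ascending limb markers 1 fell in HUA against CTL, while in XZSW against HUA 1 rose, with a summed level of 1148 to 5479.6 CPM in XZSW, 2118 to 4891 CPM in HUA and 3633 to 4598 CPM in CTL. Of 7 distal tubule and collecting duct markers 3 fell in HUA against CTL, while in XZSW against HUA 5 rose, with a summed level of 1906 to 2825 CPM in XZSW, 895 to 1365 CPM in HUA and 1295 to 1429.8 CPM in CTL. When XZSW1 and XZSW2 were left out, 5 proximal tubule markers rose and 1 fell in XZSW against HUA, 6 injury markers and 1 macrophage marker fell there, and 6 of the distal tubule and collecting duct rose. Mitochondrial transcripts took 13.5% to 17.2% of counts in XZSW libraries, 7.85% to 11.3% in HUA libraries and 11.66% to 14.9% in CTL libraries, so every HUA library was below every other. The part of these measures in the enzymes' changes was not tested. In whole kidney RNA, fewer cells of a type and less RNA per cell cannot be told apart.

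The differences were also taken within each kind of library by GC slope. Both low slope XZSW libraries were set against HUA1, and both high slope XZSW libraries against HUA2, HUA3 and HUA4. XZSW minus HUA was above 0 in both kinds for 40 of the 48 genes, or 83.3%, and for 33.4% of all tested genes, and it was below 0 in both kinds for Arg2 and Aoc1. For HUA minus CTL, HUA1 and the other 3 HUA libraries were each set against CTL. This difference was below 0 for both kinds of HUA library in 43 of the 48 genes, or 89.6%, and for 33.5% of all tested genes. With the kind of library as a further term of the fit, 33 fell and 2 rose in HUA against CTL, and 29 rose and 2 fell in XZSW against HUA. The low kind of HUA is 1 library and all CTL libraries are of the low kind, so kind and group cannot be fully told apart. The 3 libraries set against each other in the low kind, XZSW1, XZSW2 and HUA1, are also the 3 with the steepest slope on gene length.

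The genes of arginine synthesis had lower RNA levels in HUA kidneys, and the mitochondrial arginase a higher one. Of the 5 genes of arginine, urea cycle and creatine metabolism, 2 fell and 1 rose in HUA against CTL, and 3 rose and 1 fell in XZSW against HUA. Ass1, which joins citrulline and aspartate (chromosome 2, positions 31470207 to 31520672 on the plus strand, GRCm38), had 2235, 2984, 2198 and 2004 CPM in the XZSW libraries, 619, 1655, 674 and 274 CPM in the HUA libraries and 2521, 2492, 2035 and 1979 CPM in the CTL libraries. All HUA libraries lay below all XZSW and CTL libraries, with HUA2 closest to them. Ass1 fell 2.8-fold in HUA against CTL (log2 change -1.49 ± 0.39, adjusted p = 0.0131) and rose 2.92-fold in XZSW against HUA (1.55 ± 0.39, adjusted p = 0.0198). The second call was lost without HUA3 or without XZSW2, with an adjusted p of up to 0.0607, and without XZSW1 and XZSW2 together (1.38, adjusted p = 0.104). Without HUA2 the log2 changes were -2.08 and 2.16. With the kind of library as a term the fall of Ass1 in HUA did not pass (log2 change -1.50, adjusted p = 0.0727).

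Asl splits the product of Ass1 into arginine and fumarate. Its level was 220.0, 357, 223 and 221 CPM in the XZSW libraries, 124, 174, 105 and 117 CPM in the HUA libraries and 319, 329, 338 and 323 CPM in the CTL libraries. The 3 groups were ordered with HUA lowest and no overlap with it, and 3 of the 4 XZSW libraries lay close together below CTL while XZSW2 lay above. Asl fell with a log2 change of -1.33 ± 0.19 in HUA against CTL (adjusted p = 0.00043), and in XZSW against HUA it rose (log2 change 0.97 ± 0.19, adjusted p = 0.00605; without XZSW1 and XZSW2 0.77, adjusted p = 0.0347).

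Arg2 breaks arginine down to ornithine and urea in mitochondria and lies on chromosome 12 at 79130777 to 79156301 on the plus strand. It had 22.1, 7.68, 16.7 and 22.7 CPM in the XZSW libraries, 133, 58.6, 108 and 169 CPM in the HUA libraries and 28.6, 34.3, 18.6 and 41.4 CPM in the CTL libraries. All HUA libraries were above every other library, and XZSW and CTL overlapped. Arg2 rose 3.81-fold in HUA against CTL (log2 change 1.93 ± 0.37, adjusted p = 0.00222) and was 6.78-fold lower in XZSW against HUA (-2.76 ± 0.38, adjusted p = 0.00107). Both calls held in all 12 fits with 1 library left out, and the second without XZSW1 and XZSW2 (-2.57, adjusted p = 0.0105).

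Gatm and Gamt make creatine, Gatm by joining arginine and glycine and Gamt by methylating the product. Gatm had 603, 743, 846 and 740.2 CPM in the XZSW libraries, 193, 428, 185 and 27.1 CPM in the HUA libraries and 614, 544, 438 and 296 CPM in the CTL libraries. HUA4 was far below the other HUA libraries and HUA2 lay within the CTL range, so HUA and CTL overlapped, while every XZSW library was above every HUA library. Gatm rose 3.52-fold in XZSW against HUA (log2 change 1.82 ± 0.54, adjusted p = 0.0382), a call lost without any 1 of CTL1, CTL2, CTL3, HUA1, HUA3 and the 4 XZSW libraries, with an adjusted p of up to 0.0986, and without XZSW1 and XZSW2 together (1.93, adjusted p = 0.102). Without HUA2 the change of Gatm was 2.43. Its log2 change in HUA against CTL, -1.18 ± 0.53, did not pass (adjusted p = 0.118) but passed without HUA2 (-1.78, adjusted p = 0.0204). Gamt ranged from 15.9 to 23.6 CPM in XZSW, 2.6 to 15.2 CPM in HUA and 11.5 to 15.2 CPM in CTL, and neither of its changes passed (-0.68 ± 0.37 in HUA against CTL, 1.09 ± 0.37 in XZSW against HUA), although without HUA2 both did (log2 change -1.07 with adjusted p = 0.0335, and 1.51 with adjusted p = 0.00985).

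The methionine cycle and transsulfuration genes fell in HUA except Bhmt, which did not pass, and Mat2a was the one called lower in XZSW than in CTL. Of these 5 genes, 4 fell in HUA against CTL, while in XZSW against HUA 4 rose. Mat2a is the catalytic subunit that makes S-adenosylmethionine outside the liver (chromosome 6, 72432799 to 72439558, minus strand). It had 589.5, 441, 412 and 495 CPM in the XZSW libraries, 665, 504, 269 and 325 CPM in the HUA libraries and 1009.7, 1079, 781 and 994 CPM in the CTL libraries. CTL libraries were above all others, and XZSW and HUA overlapped. Mat2a fell 2.19-fold in HUA against CTL (-1.13 ± 0.25, adjusted p = 0.00479), and in XZSW against HUA its log2 change was 0.14 ± 0.25 (adjusted p = 0.762). It fell 1.99-fold in XZSW against CTL (-0.99 ± 0.25, adjusted p = 0.0394), a call that was lost without any 1 of the 4 XZSW or 4 CTL libraries, with an adjusted p of up to 0.108, and without XZSW1 and XZSW2 (-1.09, adjusted p = 0.0999). The call was also lost with library totals, all genes, limma or the kind of library as a term (adjusted p from 0.0515 to 0.0822).

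Ahcy hydrolyses S-adenosylhomocysteine, the product of methyl transfer. It had 142, 166, 118 and 110.1 CPM in the XZSW libraries, 57.0, 89.8, 40.4 and 42.0 CPM in the HUA libraries and 202, 195, 139 and 174 CPM in the CTL libraries. All HUA libraries were below all XZSW and CTL libraries, and Ahcy fell by 3.1-fold in HUA against CTL (adjusted p = 0.000543) and rose 2.34-fold in XZSW against HUA (adjusted p = 0.00621). Cbs and Cth lead homocysteine through cystathionine to cysteine. Cbs had 177, 218, 225 and 221 CPM in XZSW, 109.9, 176, 86.9 and 58.5 CPM in HUA and 299, 299, 287 and 314 CPM in CTL. Cth had 147, 149.6, 172 and 182 CPM in XZSW, 106, 132, 68.9 and 44.0 CPM in HUA and 228, 226, 212 and 205 CPM in CTL. For both, XZSW libraries lay between HUA and CTL libraries without overlap in CPM, by a narrow margin for Cbs in XZSW1 and HUA2. In FPKM they overlapped. Cbs had 22.3 in XZSW1 and 23.4 in HUA2. Cth had 45.7 in XZSW2 and 47.2 in HUA2, and 61.5 in XZSW4 and 60.2 in CTL4. Cbs fell with a log2 change of -1.48 ± 0.25 in HUA (adjusted p = 0.00119) and Cth with -1.31 ± 0.26 (adjusted p = 0.00256). Their rises in XZSW against HUA, 0.96 ± 0.25 and 0.89 ± 0.26, did not pass without HUA3 (adjusted p = 0.0685 and 0.0978), nor without XZSW2 or XZSW3, nor, for Cth, without XZSW4. Without XZSW1 and XZSW2 the changes were 0.99, adjusted p = 0.0591 for Ahcy, 1.05, adjusted p = 0.0664 for Cbs and 1.01, adjusted p = 0.0794 for Cth.

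Bhmt makes methionine from homocysteine with the methyl group of betaine, and it is abundant in liver (chromosome 13, 93616675 to 93637961, minus strand). Per length it was the least abundant of the 48 genes in HUA and CTL, and it had 12.3, 23.7, 8.29 and 9.5 CPM in the XZSW libraries, 3.15, 3.53, 0.481 and 0.709 CPM in the HUA libraries and 6.81, 3.39, 3.53 and 2.87 CPM in the CTL libraries. All XZSW libraries were above all HUA and CTL libraries, and HUA3 and HUA4 were below HUA1 and HUA2. Bhmt rose 6.83-fold in XZSW against HUA (log2 change 2.77 ± 0.60, adjusted p = 0.00944), and this call held in all 12 fits with 1 library left out but not without XZSW1 and XZSW2 together (2.18, adjusted p = 0.0721). With limma on log2(FPKM + 1), a scale that understates the change of low genes, it was 1.19. In HUA against CTL (-1.08 ± 0.58, adjusted p = 0.189) and XZSW against CTL (1.70 ± 0.58, adjusted p = 0.101) Bhmt did not pass. With the replicate number as a further term its fall in HUA against CTL did pass, with the values in the last section. The raw counts of Bhmt were 861, 1548, 569 and 561 in XZSW, 253, 243, 41 and 48 in HUA and 368, 171, 164 and 171 in CTL. Of 10 hepatocyte markers 7 passed the filter, of which 3 fell in HUA against CTL, while in XZSW against HUA 4 rose. Their summed level, 2086 to 5233 CPM in XZSW, 398 to 2434 CPM in HUA and 2857 to 4202 CPM in CTL, came mostly from Cyp2e1, which kidney cells also express. Of those that define hepatocytes, Tat had 73, 61, 0 and 0 counts in XZSW libraries, Cps1 had 69, 34, 0 and 0, and Alb had 1224, 762, 189 and 1140. Traces were also found outside XZSW. Tat had at most 4 counts there (CTL4), Cps1 24 (HUA3), Apoa2 27 (CTL1 and CTL4) and Serpina3k 19 (CTL2). Ttr, also on the list, had its highest mean in CTL, 105 CPM, against 68.3 CPM in XZSW and 28.4 CPM in HUA. Apoa1 had 1.25, 1.18, 0.0583 and 16.6 CPM in XZSW, at most 0.812 CPM in HUA and at most 1.04 CPM in CTL, and Alb, at 2.75 to 19.3 CPM in XZSW, had at most 2.94 CPM in HUA and 4.87 CPM in CTL. XZSW4 thus had the most of Apoa1 and Alb and 0 counts of Ahsg, Tat and Cps1. The part of liver transcripts in the Bhmt values was not tested. A processed copy, Bhmt-ps1, held 51 counts over the 12 libraries, against 4998 for Bhmt.

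All 3 tyrosine genes fell in HUA and rose in XZSW against HUA. Hpd turns hydroxyphenylpyruvate into homogentisate, Hgd opens the ring of homogentisate, and Fah cleaves the last intermediate into fumarate and acetoacetate. Hpd had 254, 424, 112 and 151 CPM in the XZSW libraries, 59.3, 91.7, 12.7 and 4.19 CPM in the HUA libraries and 226, 222, 91.5 and 244 CPM in the CTL libraries. Its spread was wide, with HUA4 lowest, and HUA2 stood above CTL3, so these groups overlapped. Hpd fell 4.67-fold in HUA against CTL (-2.22 ± 0.74, adjusted p = 0.0396) and rose 5.6-fold in XZSW against HUA (2.48 ± 0.75, adjusted p = 0.0399). The fall was lost without any 1 of CTL1, CTL2, CTL4, HUA3 and XZSW1 and the rise without any 1 of CTL1, CTL2, CTL4, HUA3, XZSW1, XZSW2 and XZSW4, with an adjusted p of up to 0.108 for the rise. Without HUA2 the log2 changes were -2.92 and 3.20, and without XZSW1 and XZSW2 the rise was 1.65, adjusted p = 0.253. With the kind of library as a term neither passed, the fall at -1.43 (adjusted p = 0.303) and the rise at 2.09 (adjusted p = 0.0753). The fall also did not pass with library totals (-1.91, adjusted p = 0.0522), with all genes of at least 1 count (-2.17, adjusted p = 0.0629) or with the 8 libraries of the comparison (-2.21, adjusted p = 0.0645).

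Hgd had 398, 511, 402 and 429 CPM in the XZSW libraries, 223, 318, 151 and 113 CPM in the HUA libraries and 578, 558, 491 and 486 CPM in the CTL libraries. Fah had 508, 654, 476 and 474 CPM in the XZSW libraries, 277, 382, 208 and 202 CPM in the HUA libraries and 569.9, 595, 494 and 497 CPM in the CTL libraries. In both genes all HUA libraries were below all XZSW and CTL libraries, and XZSW and CTL overlapped. Hgd fell 2.62-fold (adjusted p = 0.00169) and Fah 2.02-fold (adjusted p = 0.00261) in HUA against CTL. They rose 2.16-fold (adjusted p = 0.0118) and 1.98-fold (adjusted p = 0.00709), both in XZSW against HUA, and these calls held with any 1 library left out. When XZSW1 and XZSW2 were left out, they did not, with 1.05, adjusted p = 0.0683 for Hgd and 0.83, adjusted p = 0.0571 for Fah.

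Among the 8 genes of proline, ornithine, glutamate and aspartate, those that oxidise proline or its products had the largest log2 changes. Of the 8, 6 fell and 2 did not pass in HUA against CTL, and in XZSW against HUA 4 rose and 4 did not pass. Prodh oxidises proline and Prodh2 hydroxyproline, and Aldh4a1 takes the product of Prodh on to glutamate. Prodh had 267, 417, 263 and 220.5 CPM in XZSW, 129, 183, 107 and 72.4 CPM in HUA and 439.5, 431, 313 and 380.2 CPM in CTL. Prodh2 had 51.3, 66.4, 65.6 and 54.0 CPM in XZSW, 18.1, 28.9, 18.5 and 23.0 CPM in HUA and 52.9, 39.9, 41.6 and 34.8 CPM in CTL. Aldh4a1 had 413, 593, 479.7 and 415 CPM in XZSW, 262, 384, 164 and 152 CPM in HUA and 591, 587, 486 and 513 CPM in CTL. In each of the 3 genes all HUA libraries were below all XZSW and CTL libraries. Their log2 changes in HUA against CTL were -1.67 ± 0.27 (adjusted p = 0.00078) for Prodh, -0.94 ± 0.18 (adjusted p = 0.00207) for Prodh2 and -1.18 ± 0.26 (adjusted p = 0.0046) for Aldh4a1. Against HUA, XZSW libraries had rises of 1.25 ± 0.27, 1.42 ± 0.18 and 0.98 ± 0.26, with adjusted p = 0.00827, 0.000621 and 0.022. Aldh4a1 was lost without HUA3 or XZSW2 (adjusted p up to 0.0648). In the fit that left out XZSW1 and XZSW2, the changes were 0.98, adjusted p = 0.0651 for Prodh, 1.44, adjusted p = 0.00766 for Prodh2 and 0.90, adjusted p = 0.103 for Aldh4a1.

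Other genes of this group act on glutamate, glutamine, aspartate and ornithine. Glud1, mitochondrial glutamate dehydrogenase, had 667, 1135, 402 and 429.8 CPM in XZSW, 587, 412, 323 and 437 CPM in HUA and 934, 926, 668 and 755 CPM in CTL. XZSW2 was far above XZSW3 and XZSW4. Glud1 fell with a log2 change of -0.90 ± 0.30 in HUA against CTL (adjusted p = 0.0386), a call lost without any 1 of CTL1, CTL2, CTL4, HUA2, HUA3 and HUA4 (adjusted p up to 0.114). The fall of Glud1 was also lost with the kind of library as a term (-0.25, adjusted p = 0.521), with library totals (-0.57, adjusted p = 0.113), with all genes (-0.85, adjusted p = 0.069) and with limma. Without XZSW1 and XZSW2 its change in XZSW against HUA was -0.08 where it was 0.58 with them. Got2, the mitochondrial aspartate aminotransferase, had 332, 407, 404 and 391 CPM in XZSW, 286, 274, 272 and 319 CPM in HUA and 389, 379.6, 346 and 351 CPM in CTL. Got2 fell in HUA (log2 change -0.35 ± 0.12, adjusted p = 0.0411) and rose in XZSW against HUA (log2 change 0.42 ± 0.12, adjusted p = 0.0311), the smallest called changes of the 48. The fall was lost without any 1 of HUA1, HUA2, HUA3, XZSW3, XZSW4 and the 4 CTL libraries (adjusted p up to 0.127), and the rise without any 1 of HUA2, HUA3, XZSW2, XZSW3 and XZSW4 (up to 0.0875). With XZSW1 and XZSW2 left out, the rise was 0.47, adjusted p = 0.0651. With library totals in place of TMM the change of Got2 in HUA was -0.02 (adjusted p = 0.918), and the fall did not pass with all genes, the 8 libraries, limma or the kind of library as a term either (adjusted p from 0.0515 to 0.997). Processed copies of Glud1 and Got2, Glud-ps and Got2-ps1, held 1325 and 2838 counts over the 12 libraries, against 479827 and 264397 for the genes themselves. Got1, the cytosolic form, fell in HUA (log2 change -0.71 ± 0.15, adjusted p = 0.00367), which did not pass with library totals or limma (adjusted p from 0.0534 to 0.0565), and its 0.42 ± 0.15 in XZSW against HUA passed only without HUA1 among the fits with 1 library left out (adjusted p = 0.0149).

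Oat, which converts ornithine to glutamate semialdehyde, ranged from 177 to 218 CPM in XZSW, 149 to 220.4 CPM in HUA and 158 to 180.2 CPM in CTL, with log2 changes of 0.06 ± 0.14 in HUA against CTL and 0.13 ± 0.14 in XZSW against HUA. Glul, glutamine synthetase, ranged from 319.5 to 635 CPM in XZSW, 213.5 to 599 CPM in HUA and 360.0 to 554 CPM in CTL, with changes of -0.33 ± 0.30 and 0.37 ± 0.30. Neither gene passed in any comparison, although Oat did in HUA against CTL with limma, at 0.39 and 0.40 with the larger and the smaller pseudocount (adjusted p = 0.0457 and 0.0461).

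All 11 genes of branched chain amino acid and propionate breakdown fell in HUA against CTL, each with every HUA library below every CTL library. In XZSW against HUA 8 of them rose and 3, Dbt, Pccb and Hibch, did not pass. In XZSW against CTL the 11 had log2 changes between -0.67 and -0.15, of which Pccb passed the test. Their median was -0.35, beside 0.04 over all tested genes. That all lay below 0 depended on the libraries and the scaling. Without XZSW1 and XZSW2 Bckdhb was at 0.18. By mean FPKM, Bckdhb (29.13 in XZSW, 27.35 in CTL) and Ivd (45.05 and 43.99) were higher in XZSW, and the others lower. Bckdha and Bckdhb are the decarboxylase subunits of the branched chain keto acid dehydrogenase, and Dbt is its core. Bckdha had 214, 313, 281 and 259.5 CPM in XZSW, 134, 208, 126 and 157 CPM in HUA and 336, 334, 298 and 325 CPM in CTL. Bckdhb had 42.1, 42.1, 58.5 and 83.0 CPM in XZSW, 33.0, 43.0, 16.5 and 18.3 CPM in HUA and 59.1, 62.8, 63.1 and 64.8 CPM in CTL. Bckdhb libraries overlapped between XZSW and HUA, where HUA2 exceeded XZSW1 and XZSW2. Bckdha fell (log2 change -1.05 ± 0.17, adjusted p = 0.000815), Bckdhb (log2 change -1.17 ± 0.29, adjusted p = 0.00978) and Dbt (log2 change -1.18 ± 0.22, adjusted p = 0.00192) in HUA. Against HUA, Bckdha rose in XZSW (log2 change 0.77 ± 0.17, adjusted p = 0.00963) and Bckdhb (log2 change 1.03 ± 0.29, adjusted p = 0.0322), and the call of Bckdhb was lost without any 1 of HUA3, HUA4, XZSW3 and XZSW4 (adjusted p up to 0.0948). When XZSW1 and XZSW2 were left out, both passed, Bckdha at 0.79, adjusted p = 0.0349 and Bckdhb at 1.35, adjusted p = 0.0331.

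Leucine breakdown continues with Ivd, the isovaleryl-CoA dehydrogenase, and with Mccc1 and Mccc2, the subunits of methylcrotonyl-CoA carboxylase. Ivd had 230.5, 299.7, 288 and 256 CPM in XZSW, 132, 195, 90.9 and 95.9 CPM in HUA and 324, 319, 291 and 292 CPM in CTL. Mccc1 had 143, 162, 139.7 and 124 CPM in XZSW, 99.7, 97.5, 61.3 and 52.3 CPM in HUA and 181, 188, 181 and 173 CPM in CTL. Mccc2 had 69.9, 80.0, 77.4 and 80.5 CPM in XZSW, 62.8, 59.6, 30.7 and 33.2 CPM in HUA and 111, 110.1, 101 and 109 CPM in CTL. All 3 had their lowest values in HUA3 and HUA4, and XZSW libraries of Mccc1 and Mccc2 lay between HUA and CTL without overlap. Ivd rose 2.09-fold (adjusted p = 0.00621), Mccc1 1.83-fold (adjusted p = 0.0102) and Mccc2 1.65-fold (adjusted p = 0.0326) in XZSW against HUA. Mccc2 did not pass without any 1 of HUA3, HUA4, XZSW2, XZSW3 and XZSW4 (adjusted p up to 0.0785). Without XZSW1 and XZSW2 the changes were 1.08, adjusted p = 0.0334 for Ivd, 0.76, adjusted p = 0.0764 for Mccc1 and 0.76, adjusted p = 0.102 for Mccc2.

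Valine breakdown passes through Hibch, Hibadh and Aldh6a1. Hibadh, hydroxyisobutyrate dehydrogenase, had 547, 674, 503 and 518 CPM in XZSW, 286, 397, 223 and 227 CPM in HUA and 679.7, 721, 682 and 644 CPM in CTL. Aldh6a1, methylmalonate semialdehyde dehydrogenase, had 1048, 1256, 775 and 742 CPM in XZSW, 652, 692, 326 and 230.3 CPM in HUA and 1367, 1448, 1393 and 1103 CPM in CTL. Hibch, hydroxyisobutyryl-CoA hydrolase, had 41.6, 42.6, 37.0 and 38.4 CPM in XZSW, 33.7, 34.9, 14.9 and 21.6 CPM in HUA and 60.6, 67.6, 59.9 and 65.1 CPM in CTL. HUA libraries were the lowest in all 3 genes. Hibch and Hibadh both fell by 1.27 on the log2 scale in HUA (adjusted p = 0.00117 and 0.000424), and Aldh6a1 (log2 change -1.48 ± 0.31, adjusted p = 0.00367). Hibadh rose in XZSW against HUA (log2 change 0.98 ± 0.18, adjusted p = 0.00439). Aldh6a1 rose (log2 change 1.01 ± 0.31, adjusted p = 0.0424), but its call was lost without any 1 of HUA3, HUA4, XZSW1, XZSW2, XZSW3 and the 4 CTL libraries, with an adjusted p of up to 0.117, and with the kind of library as a term (0.85, adjusted p = 0.0513). When XZSW1 and XZSW2 were left out, the changes were 0.85, adjusted p = 0.0397 for Hibadh and 0.68, adjusted p = 0.281 for Aldh6a1. The changes of Dbt, 0.57 ± 0.22, and Hibch, 0.60 ± 0.22, in XZSW against HUA passed without HUA1 (adjusted p = 0.0186 and 0.0362), and that of Hibch also without HUA2 (adjusted p = 0.0286).

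Propionyl-CoA carboxylase, which takes up the propionyl-CoA from valine, isoleucine and methionine, is built of the subunits Pcca and Pccb. Pcca had 109.6, 126, 114 and 104 CPM in the XZSW libraries, 83.6, 88.7, 53.7 and 48.1 CPM in the HUA libraries and 150.0, 141, 138 and 130.1 CPM in the CTL libraries. Pccb (chromosome 9, 100982032 to 101034898, minus strand) had 217, 276, 254 and 255 CPM in the XZSW libraries, 240.5, 261, 208 and 265 CPM in the HUA libraries and 376, 406, 401 and 386 CPM in the CTL libraries. Pcca in XZSW lay between HUA and CTL, while Pccb in XZSW lay within the range of HUA, save XZSW2 above it, and below all CTL libraries. In FPKM, Pcca overlapped between XZSW and CTL, with 21.1 in XZSW3 and 20.1 in CTL2. Pcca rose in XZSW against HUA (log2 change 0.73 ± 0.18, adjusted p = 0.0186), which did not pass without HUA3 or XZSW2 (adjusted p up to 0.0555), and Pccb did not pass (log2 change 0.04 ± 0.12, adjusted p = 0.862). Pcca fell in HUA against CTL (log2 change -1.03 ± 0.18, adjusted p = 0.00147) and Pccb (log2 change -0.69 ± 0.12, adjusted p = 0.00147). Pccb also fell in XZSW against CTL (log2 change -0.65 ± 0.12, adjusted p = 0.0159), a call lost without CTL2 or CTL3 (adjusted p up to 0.0573). In the fit that left out XZSW1 and XZSW2, the rise of Pcca was 0.67, adjusted p = 0.0992, and the fall of Pccb against CTL was -0.62, adjusted p = 0.0561. The ratio of their FPKM values, Pcca over Pccb, was 0.218 to 0.269 in XZSW, 0.0965 to 0.185 in HUA and 0.179 to 0.212 in CTL libraries. A test of the difference between the subunits was not run.

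Glycine and serine genes fell in HUA in 4 of 6 cases, and 4 of 6 rose in XZSW against HUA. Shmt2 moves a carbon unit from serine to folate in mitochondria and Shmt1 does so in the cytosol. Shmt2 (chromosome 10, 127517123 to 127522444, minus strand) had 218, 318, 239 and 252 CPM in the XZSW libraries, 82.5, 148, 59.3 and 74.1 CPM in the HUA libraries and 264, 277, 256 and 209.8 CPM in the CTL libraries. Shmt1 had 55.3, 64.1, 58.8 and 61.6 CPM in the XZSW libraries, 44.4, 46.1, 21.7 and 31.1 CPM in the HUA libraries and 59.6, 50.2, 46.0 and 64.5 CPM in the CTL libraries. All HUA libraries of Shmt2 were below all others, whereas for Shmt1 HUA2 was just above the lowest CTL library. Shmt2 fell 2.77-fold in HUA against CTL (-1.47 ± 0.24, adjusted p = 0.000968) and rose 2.82-fold in XZSW against HUA (adjusted p = 0.00223). Shmt1 fell 1.54-fold (adjusted p = 0.0389) and rose 1.68-fold (adjusted p = 0.0288), of which the fall was lost without any 1 of CTL1, CTL2, CTL4, HUA3, HUA4 and XZSW3 (adjusted p up to 0.105) and the rise without any 1 of HUA3, HUA4, XZSW2, XZSW3 and XZSW4 (up to 0.0714). The fall of Shmt1 was also lost with the kind of library as a term (-0.49, adjusted p = 0.186), library totals (-0.30, adjusted p = 0.268), all genes, the 8 libraries, limma, and without XZSW1 and XZSW2 (-0.62, adjusted p = 0.0567). Without that pair the rises were 0.75, adjusted p = 0.105 for Shmt1 and 1.43, adjusted p = 0.0197 for Shmt2. The FPKM ratio of Shmt1 to Shmt2 was 0.161 to 0.203 in XZSW, 0.250 to 0.430 in HUA and 0.144 to 0.246 in CTL.

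Gcsh carries the intermediate of the glycine cleavage system, in which Gldc and Amt are the enzymes. Gcsh had 79.2, 109, 125 and 114 CPM in XZSW, 55.8, 67.9, 46.9 and 52.3 CPM in HUA and 110.3, 108, 118 and 105 CPM in CTL. It fell in HUA (log2 change -0.98 ± 0.15, adjusted p = 0.000714) and rose in XZSW against HUA (log2 change 0.94 ± 0.15, adjusted p = 0.00237), and both calls held with any 1 library left out, the rise also without XZSW1 and XZSW2 (1.10, adjusted p = 0.00622). Gldc ranged from 62.8 to 252 CPM in XZSW, 50.6 to 104 CPM in HUA and 95.2 to 196 CPM in CTL, and Amt from 51.6 to 74.9, 17.6 to 50.7 and 54.2 to 64.5 CPM in the same groups. Neither passed in any comparison, with log2 changes of -0.67 ± 0.39 and -0.68 ± 0.25 in HUA and 0.72 ± 0.39 and 0.69 ± 0.25 in XZSW against HUA, but without HUA1 both changes of Amt passed (adjusted p = 0.0267 and 0.0346), and with DESeq2 they did too (adjusted p = 0.0398 and 0.0444). Gldc had 170.4 and 252 CPM in XZSW1 and XZSW2, against 86.4 and 62.8 CPM in XZSW3 and XZSW4, and without the first pair its change in XZSW against HUA was -0.22. Agxt2, a mitochondrial aminotransferase that uses glyoxylate and also clears methylated arginines, had 122, 157, 127 and 109 CPM in XZSW, 75.8, 88.6, 51.0 and 45.2 CPM in HUA and 139, 145, 123 and 116 CPM in CTL. All its HUA libraries were below the others, and Agxt2 fell (log2 change -1.01 ± 0.20, adjusted p = 0.00291) and rose (log2 change 0.98 ± 0.20, adjusted p = 0.00743; without XZSW1 and XZSW2 0.86, adjusted p = 0.0569).

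Of the D-amino acid oxidases, Dao fell in HUA and rose in XZSW against HUA. Dao oxidises neutral D-amino acids and Ddo acidic ones, both in peroxisomes. Dao had 246, 296, 279.6 and 308 CPM in XZSW, 169.7, 239, 186 and 188 CPM in HUA and 348, 353, 395 and 329 CPM in CTL. Ddo had 43.9, 34.0, 54.4 and 52.7 CPM in XZSW, 31.1, 39.3, 28.9 and 46.4 CPM in HUA and 52.3, 47.9, 52.1 and 44.7 CPM in CTL. In CPM, Dao libraries formed 3 separate ranges with HUA lowest and CTL highest, and those of Ddo overlapped. In FPKM the ranges of Dao overlapped, with 80.8 in HUA2 above 78.5 in XZSW1, and 98.4 in XZSW4 above 89.1 in CTL2. Dao fell (log2 change -0.86 ± 0.14, adjusted p = 0.000717) and rose (log2 change 0.53 ± 0.14, adjusted p = 0.0207), the rise being lost without any 1 of HUA3, XZSW2 and XZSW4 (adjusted p up to 0.0586) and without XZSW1 and XZSW2 (0.59, adjusted p = 0.0557). For Ddo the changes in the same comparisons were -0.44 ± 0.18 and 0.35 ± 0.18 and did not pass, although the first did without HUA4 (adjusted p = 0.0407), as it did with the kind of library as a term (-0.73, adjusted p = 0.0143).

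The kynurenine pathway leads from tryptophan to NAD. Of its 6 genes here 4 fell in HUA against CTL, 3 rose in XZSW against HUA, and Kynu and Qprt passed in neither. Kmo hydroxylates kynurenine, Haao opens the ring of a later intermediate, Acmsd diverts the product of Haao away from NAD, and Aadat makes kynurenic acid. Kmo had 81.0, 97.1, 66.7 and 68.6 CPM in XZSW, 61.5, 54.0, 24.7 and 24.1 CPM in HUA and 116, 124, 122 and 108 CPM in CTL. Haao had 167, 217, 183 and 191 CPM in XZSW, 80.9, 143, 50.4 and 40.9 CPM in HUA and 258, 244, 252 and 239.8 CPM in CTL. Both were ordered with HUA lowest, XZSW between and CTL highest, without overlap in CPM. In FPKM, Haao overlapped between XZSW and CTL, with 39.5 in XZSW2 and 38.9 in CTL2. Kmo fell (log2 change -1.51 ± 0.28, adjusted p = 0.00168) and Haao (log2 change -1.66 ± 0.30, adjusted p = 0.00169) in HUA. Haao rose in XZSW against HUA (log2 change 1.26 ± 0.30, adjusted p = 0.0143) and Kmo (log2 change 0.93 ± 0.27, adjusted p = 0.0361), the call of Kmo being lost without any 1 of CTL1, CTL2, CTL3, HUA3, HUA4 and the 4 XZSW libraries (adjusted p up to 0.0979). Without XZSW1 and XZSW2 neither passed, with 1.25, adjusted p = 0.0683 for Haao and 0.72, adjusted p = 0.211 for Kmo.

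Acmsd had 67.9, 77.8, 161 and 167 CPM in XZSW, 31.3, 58.2, 41.0 and 10.1 CPM in HUA and 105, 102, 158 and 76.6 CPM in CTL. XZSW3 and XZSW4 were about as high as CTL3, and XZSW1 and XZSW2 were lower. Acmsd rose 3.37-fold in XZSW against HUA (1.75 ± 0.45, adjusted p = 0.0206), lost without XZSW3 or XZSW4 (adjusted p up to 0.0555) but not without XZSW1 and XZSW2 (2.22, adjusted p = 0.0241). Aadat had 197, 201, 139 and 185 CPM in XZSW, 94.4, 161, 63.0 and 33.6 CPM in HUA and 308, 369.9, 373 and 244 CPM in CTL, and it had the largest fall of this pathway in HUA against CTL (log2 change -1.88 ± 0.36, adjusted p = 0.00219). In XZSW all libraries of Aadat were below CTL, and its 1.04 ± 0.35 against HUA did not pass (adjusted p = 0.0648) although it passed without HUA2 (adjusted p = 0.0043), with DESeq2 (adjusted p = 0.019) and with limma (adjusted p = 0.0441 and 0.047). Qprt, the step that enters NAD synthesis, ranged from 24.2 to 55.5 CPM in XZSW, 26.7 to 51.7 CPM in HUA and 51.8 to 58.9 CPM in CTL, and its log2 change of -0.59 ± 0.25 in HUA against CTL passed only without HUA4 among the fits with 1 library left out (adjusted p = 0.0473). The change of Qprt there also passed with the kind of library as a term (-1.05, adjusted p = 0.0114), with the 8 libraries (adjusted p = 0.049) and without XZSW1 and XZSW2 (adjusted p = 0.0346). Kynu, which cleaves kynurenines, stayed between 5.51 and 18.7 CPM in all 12 libraries.

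Aoc1 and Miox moved in opposite directions. Aoc1, diamine oxidase, breaks down histamine and putrescine (chromosome 6, 48872896 to 48909188, plus strand). It had 12.8, 10.6, 24.9 and 38.2 CPM in the XZSW libraries, 79.2, 50.7, 32.6 and 53.2 CPM in the HUA libraries and 4.88, 5.45, 4.89 and 7.37 CPM in the CTL libraries. Every HUA and every XZSW library was above every CTL library, and XZSW4 was above HUA3. Aoc1 rose 9.54-fold in HUA against CTL (log2 change 3.25 ± 0.40, adjusted p = 0.000137), the largest change of the 48 genes in that comparison. It was 2.49-fold lower in XZSW against HUA (-1.32 ± 0.37, adjusted p = 0.0294), lost without any 1 of HUA1, HUA4, XZSW1, XZSW2 and XZSW3 (adjusted p up to 0.0728), and without XZSW1 and XZSW2 together (-0.77, adjusted p = 0.165). It was 3.83-fold higher in XZSW against CTL (1.94 ± 0.38, adjusted p = 0.0178), lost without any 1 of CTL1, CTL2 and CTL3 (adjusted p up to 0.0661) but not without XZSW1 and XZSW2 (2.48, adjusted p = 0.00864).

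Miox oxidises inositol to glucuronate and is largely confined to the proximal tubule, as background (chromosome 15, 89334398 to 89337015, plus strand). It had 1346, 1789.6, 1727 and 1569 CPM in the XZSW libraries, 348, 807, 346 and 134 CPM in the HUA libraries and 1297, 1272, 1155 and 1066 CPM in the CTL libraries. HUA4 was lowest, and every XZSW library was above every CTL library. Miox fell 2.93-fold in HUA against CTL (-1.55 ± 0.38, adjusted p = 0.00835) and rose 3.94-fold in XZSW against HUA (1.98 ± 0.38, adjusted p = 0.00564). The rise held without XZSW1 and XZSW2 (2.01, adjusted p = 0.0305). Its change of 0.42 ± 0.37 in XZSW against CTL did not pass (adjusted p = 0.531).

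**Figure D3:**
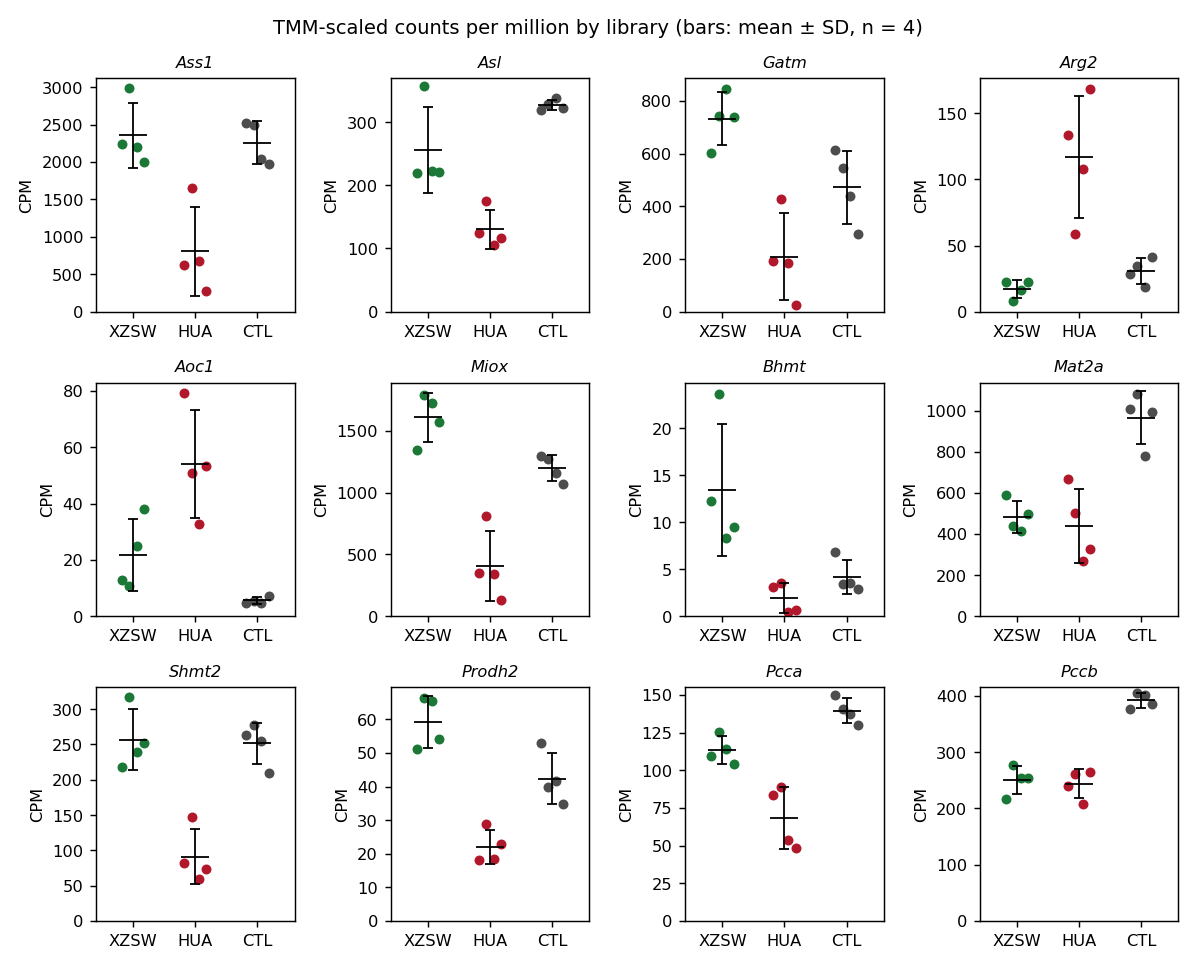
TMM-scaled CPM (y axis, from 0) of 12 of the enzyme genes in each XZSW, HUA and CTL library (points, in the order of their numbers), with the mean ± SD of 4 libraries (bar). Arg2 and Aoc1 are highest in HUA, the XZSW points of Pccb and Mat2a overlap the HUA points, and the HUA points of Ass1, Gatm and Miox spread widely with HUA2 on top.

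Levels between genes can be compared only per length, for which the deposited FPKM values were used. In CTL kidneys Ass1 was the most abundant at 736 ± 70.2 FPKM (SD, n = 4), followed by Miox at 572 ± 36.0 and Fah at 192 ± 10.7. The lowest were Aoc1 at 1.36 ± 0.321, Kynu at 1.11 ± 0.528 and Bhmt at 0.565 ± 0.243 FPKM. Of the 47 pairs of neighbours in this order, 7 differed in mean by more than the sum of their SDs, so most neighbours cannot be ranked. In the orders of HUA and XZSW 2 and 4 of 47 pairs did, so places given for these groups are approximate. Ass1 was again first in HUA kidneys at 335 ± 244 FPKM, followed by Miox at 249 ± 171, and the gap between them was smaller than either SD. Arg2 was number 43 of 48 in XZSW, 8 in HUA and 38 in CTL, with 11.4 ± 4.82, 82.7 ± 32.7 and 17.0 ± 5.43 FPKM. In HUA, Bckdha (82.7) and Aldh6a1 (82.4) had nearly the same mean FPKM as Arg2. Aoc1 was number 44, 30 and 46 in the same order of groups. Gatm was number 3 in XZSW, 13 in HUA and 9 in CTL, at 226 ± 35.4, 69.7 ± 54.8 and 124 ± 33.5 FPKM.

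**Figure D4:**
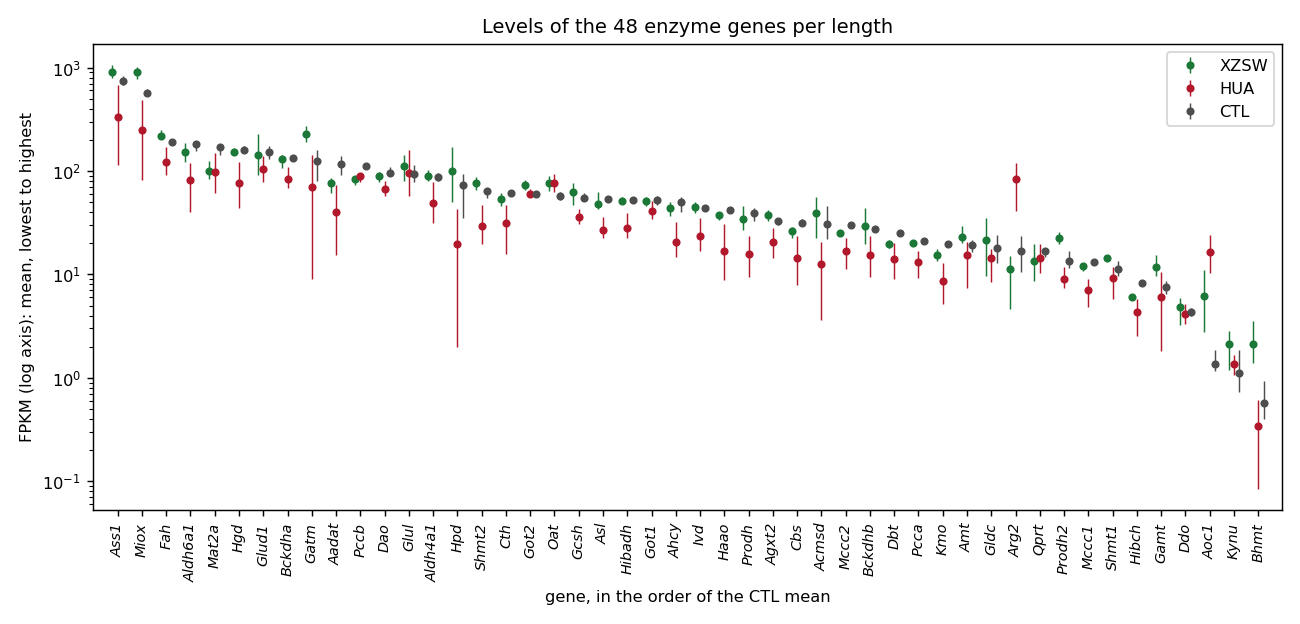
Deposited FPKM of the 48 genes on a log axis, in the order of their CTL mean, as the mean (point) and the lowest to highest of 4 libraries (line) in XZSW, HUA and CTL. HUA means lie under the others for most genes, the HUA lines of Hpd, Gatm and Bhmt reach furthest down, and Arg2 and Aoc1 stand out above in HUA.

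Other genes of the same pathways gave a wider view. A list of 91 was written from textbook pathways, of which 90 were in the table and 85 passed the filter. Of the 85, 49 fell and 8 rose in HUA against CTL, with a median log2 change of -0.77, and the 8 became 4 without CTL3 and 5 without CTL4 or HUA3. In XZSW against HUA 36 rose and 4 fell, with a median of 0.61, although without XZSW1 and XZSW2, as with the 8 libraries of the comparison alone, 13 rose, without HUA3 23 rose and without XZSW2 20 rose. The 4 that fell became 2 without XZSW2 or without XZSW3. Between XZSW and CTL 1 rose and 2 fell, and with 1 library left out 0 to 2 rose and 0 to 5 fell. All 5 lysine degradation genes fell in HUA and rose in XZSW against HUA.

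The largest called changes in HUA against CTL went in both directions. Asns, which makes asparagine, had 8.32, 2.85, 4.43 and 2.93 CPM in the XZSW libraries, 13.1, 15.4, 42.9 and 31.4 CPM in the HUA libraries and 1.61, 1.33, 4.54 and 5.6 CPM in the CTL libraries. All HUA libraries were above all others, and Asns rose in HUA (log2 change 2.97 ± 0.55, adjusted p = 0.0018) and fell in XZSW against HUA (log2 change -2.47 ± 0.54, adjusted p = 0.00954; without XZSW1 and XZSW2 -2.80, adjusted p = 0.0372). Aldh18a1, the first enzyme of proline synthesis, had 3.13, 2.18, 3.16 and 3.29 CPM in XZSW, 3.8, 6.25, 14.8 and 7.68 CPM in HUA and 1.92, 1.11, 1.27 and 2.78 CPM in CTL. It rose in HUA (log2 change 2.19 ± 0.41, adjusted p = 0.0018). Gls2, a glutaminase of the liver, had 0.456, 0.184, 0.204 and 0.322 CPM in XZSW, 0.349, 0.378, 0.598 and 1.08 CPM in HUA and 0.203, 0.198, 0.151 and 0.0335 CPM in CTL. It was close to the limit of detection throughout and rose in HUA (log2 change 2.03 ± 0.65, adjusted p = 0.0325). Of the other genes that rose in HUA, 3 make amino acids, namely Psat1 (1.27 ± 0.31) and Phgdh (1.28 ± 0.41) of serine synthesis and Gpt2 (1.25 ± 0.34), a mitochondrial alanine aminotransferase, and they were picked for mention after their values were seen.

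Aspa, which splits acetylaspartate, and Gnmt, which methylates glycine, had the deepest called falls. Aspa had 63.3, 103, 95.0 and 99.3 CPM in XZSW, 34.9, 58.5, 12.5 and 11.8 CPM in HUA and 155, 168, 157 and 137 CPM in CTL. Gnmt had 16.1, 18.9, 15.7 and 21.4 CPM in XZSW, 7.62, 13.1, 5.41 and 3.87 CPM in HUA and 29.3, 34.5, 34.7 and 34.5 CPM in CTL. Both had XZSW libraries between HUA and CTL without overlap. Aspa fell (log2 change -2.39 ± 0.43, adjusted p = 0.00145) and rose in XZSW against HUA (log2 change 1.61 ± 0.41, adjusted p = 0.0207), and Gnmt fell (log2 change -2.15 ± 0.30, adjusted p = 0.000322). Among the largest rises in XZSW against HUA were Afmid, which frees kynurenine, at 1.91 ± 0.31 (adjusted p = 0.00216), and Ftcd of histidine breakdown at 1.63 ± 0.39 (adjusted p = 0.015). Between XZSW and CTL kidneys, Dld, a subunit shared by the keto acid dehydrogenases, fell (log2 change -0.65 ± 0.14, adjusted p = 0.0259) and Sqor, which oxidises sulfide, (log2 change -0.40 ± 0.11, adjusted p = 0.0462). The liver arginase Arg1 rose in that comparison (adjusted p = 0.0398) on 34, 39, 0 and 465 counts in XZSW libraries and 0, 0, 0 and 4 in CTL libraries, so XZSW4 carried most of it. With XZSW1 and XZSW2 left out, Aspa (1.72, adjusted p = 0.0607) and Ftcd (1.33, adjusted p = 0.103) did not pass against HUA and Afmid did (1.41, adjusted p = 0.0163), while Dld, Sqor and Arg1 did not pass against CTL (adjusted p = 0.103, 0.105 and 0.0529).

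**Figure D5:**
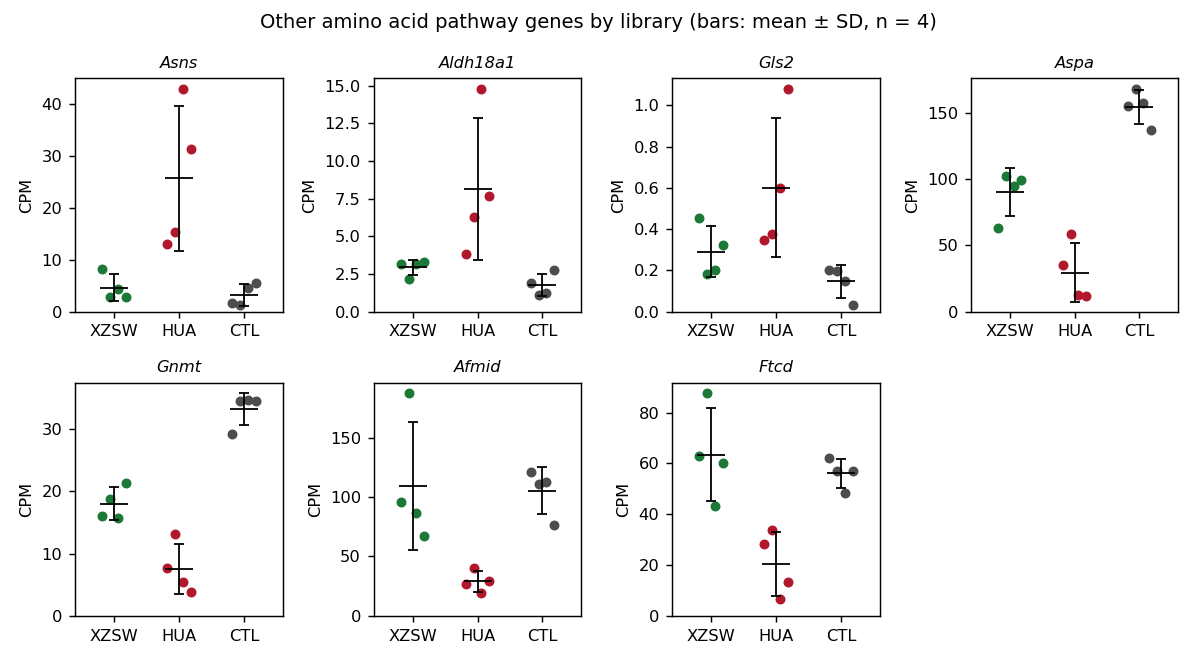
TMM-scaled CPM (y axis, from 0) of 7 other amino acid pathway genes in each XZSW, HUA and CTL library (points), with the mean ± SD of 4 libraries (bar). The synthesis genes Asns and Aldh18a1 are highest in HUA, and Aspa, Gnmt, Afmid and Ftcd are lowest in HUA.

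Promoter windows are shown for genes that moved together and hold a short motif of a tubule factor, and for Aoc1, which moved the other way. RefSeq promoters of build GRCm38.p6, from 250 bases before to 50 after a start, were in the table for 43 of the 48 genes, 50 promoters in all. They were searched on both strands for AAAGTCC, a core of the site of HNF4, and for TGATGCA, a core of the site of ATF4. HNF4 factors are transcription factors of the mature proximal tubule, and ATF4 is a factor of the amino acid stress response. The windows run 5′ to 3′ on the gene's strand and give the 150 bases before the start, with each motif, or its reverse complement, in capitals. They lie at chr16:37580003-37580152 (plus) for Hgd, chr15:10358383-10358532 (plus) for Agxt2 and chr6:48895105-48895254 (plus) for Aoc1.
Hgd: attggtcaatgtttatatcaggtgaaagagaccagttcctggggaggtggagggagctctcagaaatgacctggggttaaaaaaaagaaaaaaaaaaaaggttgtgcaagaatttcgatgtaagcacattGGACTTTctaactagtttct
Agxt2: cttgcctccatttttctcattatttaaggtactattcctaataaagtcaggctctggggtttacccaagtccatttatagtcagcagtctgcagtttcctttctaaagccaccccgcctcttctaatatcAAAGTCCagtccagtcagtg
Aoc1: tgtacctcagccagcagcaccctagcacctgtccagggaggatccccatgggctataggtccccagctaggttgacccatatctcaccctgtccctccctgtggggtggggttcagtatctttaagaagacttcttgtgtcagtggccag

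Capitals in Hgd and Agxt2 mark the HNF4 core, and Aoc1 held neither motif in this window. The Aoc1 window lies before a RefSeq start inside the gene, which runs from 48872896 to 48909188 in the deposited coordinates. It is thus not the region before the outer end of the gene, where the windows of Hgd and Agxt2 lie. The HNF4 core was in 5 of the 50 promoters, which belong to 4 of the 43 genes, since the 2 promoters of Agxt2 overlap and hold the same site. By gene that is 9.3%, against 4.84% of the 27025 genes in the table. The ATF4 core was in 2 of the 43 genes, or 4.65%, against 3.63%. The RNA of Hnf4a, a gene of these factors, was measured as well. It had 617, 779, 604 and 487 CPM in XZSW, 512, 385, 266 and 352 CPM in HUA and 744, 693, 788 and 796 CPM in CTL. All HUA libraries of Hnf4a were below all CTL libraries. Hnf4a fell 2-fold in HUA (adjusted p = 0.00236) and rose in XZSW against HUA (log2 change 0.72 ± 0.19, adjusted p = 0.0255), which did not pass without XZSW1 and XZSW2 (0.53, adjusted p = 0.172). A match of letters is a description and not a bound site.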

How the data were processed

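Kidney RNA of 12 samples was sequenced in strand-specific libraries, per the labels' protocols, from RNA taken with TRIzol and with an RNA integrity number over 7. The submitters' processing notes name the tools cutadapt 1.9 and HISAT2 2.2.1 and the build GRCm38. What counted the reads, whether strand was used and which annotation served are not given in the sources used here. Per the file headers, the deposited table holds raw counts and FPKM for each library, and its coordinates are the ones printed. How reads were split between overlapping genes is unknown, and 10 of the 48 genes (Cth, Hpd, Aldh4a1, Oat, Glul, Dbt, Mccc1, Pcca, Hibadh and Agxt2) overlap another on their strand in GENCODE M21, so their counts are uncertain to that extent.

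Counts were tested with edgeR 4.0.16 (glmQLFit and glmQLFTest, TMM, filterByExpr by group, Benjamini-Hochberg over 19772 genes, threshold 0.05) in R 4.3.3, with group as the only term. The deposited FPKM values served for levels and ratios between genes and for the limma alternatives. The test was checked on simulated counts. The 48 genes, the other lists and the tests were chosen with earlier results of these data known. Values in every library are given for the genes called in XZSW against HUA and, in each pathway, for the most abundant gene and those with the 2 largest changes in HUA against CTL and in XZSW against HUA; of other pathway genes, the 5 largest called changes per comparison are named, except 1 that is not reported here. DESeq2 1.42.0, limma 3.58.1 on log2(FPKM + 1) and log2(FPKM + 0.1), other scalings and filters, the 8 libraries of a comparison, the replicate number and the GC kind of library as terms, and leaving out libraries were tried as alternatives. The kind of a library was high where its GC slope was above 0.15 per 10% GC, over 11105 genes. Libraries totalled 51.6 to 74.3 M counts, and counting error weighs most on the lowest genes.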

Additional observations from a re-analysis of the deposited data

Results flagged for a closer look

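Of the 144 sets of 4 libraries (48 genes in 3 groups), 4 had a highest or lowest library whose gap to the nearest other was, as a share of the group's range, above the critical value of Dixon's test. Chance alone flags about 5% of such sets. Asl had 357 CPM in XZSW2, where the other XZSW libraries had 220.0, 223 and 221 CPM. Bhmt had 6.81 CPM in CTL1, where the other CTL libraries had 3.39, 3.53 and 2.87 CPM. Cbs had 177 CPM in XZSW1, where the others had 218, 225 and 221 CPM. Hpd had 91.5 CPM in CTL3, where the others had 226, 222 and 243.5 CPM.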

How the results depend on the processing

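The enzymes that fell in HUA against CTL numbered 31 to 37 and those that rose 2 or 3 under every alternative run, leaving out libraries included. Those that rose in XZSW against HUA numbered 15 with the 8 libraries of the comparison only and 10 without XZSW1 and XZSW2, 23 to 36 under the other alternatives, and 17 to 34 with 1 library left out; those that fell numbered 1 under the first 2 settings and 1 to 2 with 1 library left out. Between XZSW and CTL the enzymes that fell numbered 1 with library totals only, with all genes of at least 1 count and with limma at either pseudocount, 10 with the 8 libraries only, 0 without XZSW1 and XZSW2, and 0 to 3 with 1 library left out; those that rose numbered 2 with library totals, the GC kind or DESeq2, 3 with the 8 libraries or limma, and 0 to 1 with 1 library left out.

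Of the other pathway genes, those that fell in XZSW against CTL numbered 1 with RLE size factors, library totals, all genes, the replicate block or the GC kind, 16 with the 8 libraries, 6 with DESeq2, 0 with limma at either pseudocount or without XZSW1 and XZSW2, and 0 to 5 with 1 library left out. Those that rose there numbered 2 with library totals, the 8 libraries or limma, 0 with all genes of at least 1 count or with at least 1 CPM in 4 libraries, 3 with DESeq2, and 0 to 2 with 1 library left out. For XZSW against HUA, 13 rose with the 8 libraries and without XZSW1 and XZSW2, and 20 to 39 with 1 library left out; 2 fell with the GC kind and without XZSW1 and XZSW2, and 2 to 5 with 1 left out. For HUA against CTL, 4 rose with the GC kind and 4 to 9 with 1 library left out.

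Over all genes, the other alternatives gave 2540 to 5862 that rose and 1320 to 2939 that fell in HUA against CTL, 497 to 1988 and 780 to 2714 in XZSW against HUA, and 254 to 1545 and 150 to 1293 in XZSW against CTL.

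The signs that changed belonged to genes not called in the same comparison. With the GC kind as a term, Glul in HUA against CTL was at 0.26, Gldc at 0.12 and Kynu at 0.48. Kynu was also at 0.27 with library totals, 0.06 with the replicate block, and 0.19 and 0.35 with limma, and at -0.23 to 0.30 with 1 library left out, where Oat ranged from -0.02 to 0.17. Library totals, in XZSW against HUA, put Mat2a at -0.02, Oat at -0.04, Pccb at -0.13 and Qprt at -0.14, limma put Pccb at -0.08 at both pseudocounts and Qprt at -0.13 and -0.15, and the replicate block put Qprt at -0.01. Without XZSW1 and XZSW2, Glud1 was at -0.08, Glul at -0.04 and Gldc at -0.22. With 1 library left out Mat2a ranged from -0.05 to 0.39, Pccb from -0.04 to 0.10 and Qprt from -0.23 to 0.21. The causes were not tested.

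Groups share replicate numbers, but nothing in the labels says that a number marks a shared animal or day, and deviations of same-numbered XZSW and HUA libraries correlated at 0.366, 0.0735, 0.133 and 0.149, with 6 of the 12 libraries correlating best with their own number. With the replicate block 2 enzymes rose and 36 fell in HUA against CTL, 33 and 2 did in XZSW against HUA, and 1 and 2 in XZSW against CTL. With the block Bhmt passed in HUA against CTL (-1.44, adjusted p = 0.0322) and Got2 did not (-0.35, adjusted p = 0.0536); for XZSW against HUA Dbt (0.63, adjusted p = 0.0377), Hibch (0.66, adjusted p = 0.0421) and Aadat (1.21, adjusted p = 0.0243) passed and Bckdhb (1.05, adjusted p = 0.0547) did not. No other call of the 48 changed with it. Depth limits most the genes of few counts, such as Gls2 and Arg1.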
